A study of Mus musculus with 2 samples.

Results

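The clustered protocadherins were examined in maps of methylated DNA from mouse liver. A methylated region was counted when the deposited lists paired it with at least 1 transcript of the α, β or γ protocadherin cluster, by gene symbol, and each region was counted once, however many transcripts it was paired with. By this rule 40 of the 97063 regions in the Pemt-/- library and 61 of the 131279 regions in the Pemt+/+ library belonged to the clusters. All of them lay on chromosome 18. The RefSeq table named 58 genes in the clusters, of which 14 were α, 22 β and 22 γ genes, and 57 of these carried a row in the lists. The remaining gene, Pcdha2, carried no row, and regions in its part of the array were counted with its neighbour Pcdha1.

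The study compared 1 liver library from mice without Pemt (Pemt-/-) and 1 from control mice (Pemt+/+). Pemt encodes the liver enzyme that makes phosphatidylcholine by methylating phosphatidylethanolamine, with S-adenosylmethionine as the methyl donor. Pemt-/- mice lack this enzyme in every tissue. Mice of both genotypes were fed HFHS (high fat, high sucrose) chow from 5 weeks of age and their livers were taken at 25 weeks, according to the sample records. The study's Methods instead describe livers taken after 1 to 4 weeks of feeding just before the enrichment step. They name 4 mice of each genotype there. The age and feeding time of these mice, and how many went into each library, are therefore uncertain. Methylated DNA was captured with a methyl-CpG-binding kit and sequenced, so that methylated stretches appear as regions where reads, called tags, pile up.

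With 1 library per genotype there was no replicate check and no test between genotypes, and each comparison is of these 2 libraries. Methylated regions at Pemt do not show whether the gene was intact, so the genotype labels could not be checked, and the lists hold no measure that would check the tissue. The longer Pemt+/+ list had 1.35 times as many regions as the longer Pemt-/- list and a median of 17 tags per region against 13. The depth of the libraries is not in the lists, so a higher tag number and a deeper library cannot be told apart. Dividing tag ratios by the median of all paired regions, as done below, removes any difference common to all regions, of depth or methylation alike. Scaled ratios therefore show only departures from that common difference. Intervals below are 95% Wilson intervals, and they cover counting error only.

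Protocadherins of the clusters are adhesion proteins of the cadherin superfamily, known mainly from neurons, where each cell uses its own subset of them as a surface identity. In the α and γ clusters a tandem array of large variable exons, each with its own promoter, is spliced to a few constant exons at the 3′ end of the cluster. The β genes have a single exon each and share no constant part. Promoter choice in neurons is tied to DNA methylation, which Dnmt3b places in the embryo, and to the proteins CTCF and cohesin. The C-type genes at the 3′ ends of the α and γ arrays (Pcdhac1, Pcdhac2, Pcdhgc3, Pcdhgc4 and Pcdhgc5) are used more uniformly.

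Methylated regions were found along all 3 clusters in both libraries. The α cluster held 15 regions with 312 tags in Pemt-/- and 20 regions with 527 tags in Pemt+/+. The β cluster held 12 regions with 215 tags and 24 regions with 441 tags. The γ cluster held 13 regions with 281 tags and 17 regions with 472 tags. The number of regions in Pemt+/+ was thus 1.52 times that in Pemt-/- over the 3 clusters and 2 times in the β cluster, against 1.35 times in the whole lists. When the Pemt+/+ list was limited to as many top-scoring regions as the Pemt-/- list, both libraries held 40 protocadherin regions.

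Tags divided between the libraries much as they did elsewhere. Of all tags in protocadherin regions, 808 of Pemt-/- and 1440 of Pemt+/+, 35.9% came from Pemt-/- (34.0 to 37.9%), and of the tags in all listed regions 35.7% did. The share was 37.2% (34.0 to 40.5%) in the α cluster, 32.8% (29.3 to 36.5%) in the β cluster and 37.3% (33.9 to 40.8%) in the γ cluster. The 3 intervals overlapped. Such sums depend on how much of the clusters each list covered. Protocadherin regions covered 24.7 kb in Pemt-/- and 36.6 kb in Pemt+/+, with 32.7 and 39.3 tags per kb.

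Protocadherin regions were somewhat longer than regions in general, and their enrichment was lower. Their median length was 555.5 bp in Pemt-/- and 533 bp in Pemt+/+, against 421 and 423 bp over all regions. The median held 16 tags in Pemt-/- (range 10 to 42) and 19 tags in Pemt+/+ (range 9 to 54). The median fold enrichment over background was 13.1 and 12.8, against 16.9 and 16.5 over all regions.

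**Figure D1:**
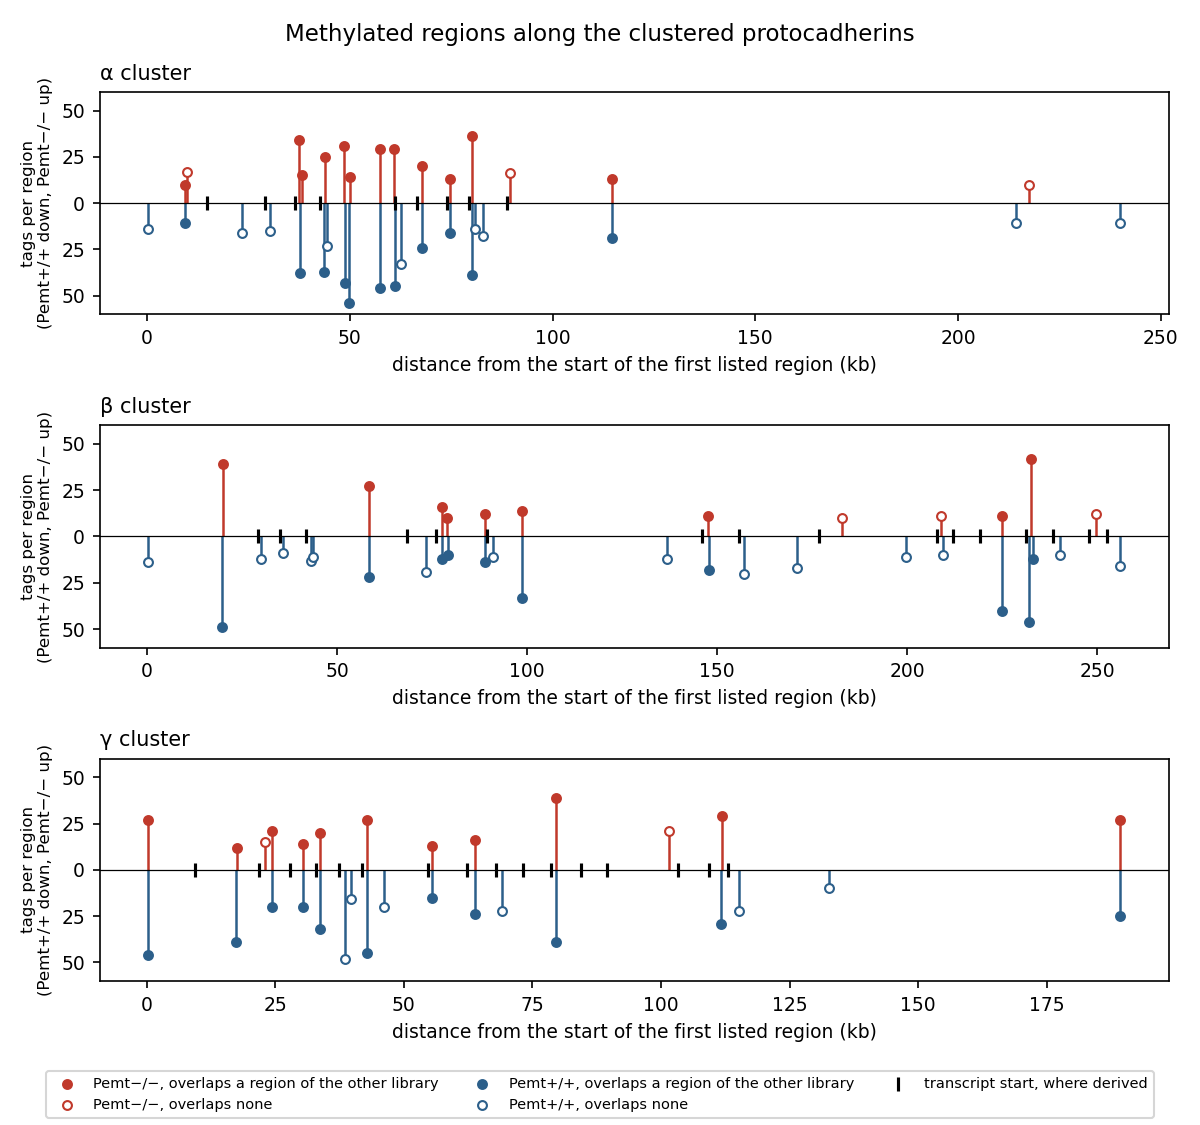
Tags per methylated region (y axis, Pemt-/- upwards and Pemt+/+ downwards) against the distance in kb from the first listed region of the α, β and γ clusters (x axis). Filled points overlap a region of the other library, open points overlap none, and ticks mark the transcript starts that could be derived. Regions stood close to the starts in the 5′ part of the α and γ arrays, and both arrays had a long stretch without regions towards their 3′ end.

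Regions were spread unevenly along the arrays, as the map of tags along the clusters shows. Per 100 kb, the α cluster had 5.83 Pemt-/- and 7.77 Pemt+/+ regions, and the β cluster had 4.68 and 9.36. The Pemt+/+ value of the β cluster includes a region 195 bp past the end of Pcdhb22, its last gene. The γ cluster, without a region upstream of it, had 6.66 and 8.88. The whole of chromosome 18 had 4.08 and 5.37. In the α cluster the longest stretch without a region followed position 37205997 and spanned 103 kb in Pemt-/-, and it spanned 99.2 kb in Pemt+/+. The C-type gene Pcdhac1 lies in this stretch, and by RefSeq length Pcdhac2 begins near its 3′ end. In the γ cluster the last 76.8 kb in Pemt-/- and 56.1 kb in Pemt+/+ before the common 3′ end had no region, and by RefSeq length the C-type genes Pcdhgc3, Pcdhgc4 and Pcdhgc5 all begin there. In the β cluster the longest stretch, 48.5 and 37.6 kb, lay downstream of Pcdhb8.

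Most protocadherin regions lay inside genes. A transcript contained or overlapped 36 of the 40 Pemt-/- regions (90.0%, 76.9 to 96.0%) and 53 of the 61 Pemt+/+ regions (86.9%, 76.2 to 93.2%), while over all regions, which include some with no transcript within 10 kb, the shares were 39.4 and 39.6%. Regions of the non-clustered protocadherins, chosen by symbol in the same way, gave 92.4 and 93.5%, and those of the classical cadherins 93.5 and 90.4%. The transcripts of the α and γ clusters span most of their arrays, so a region anywhere in an array lies inside a transcript. Only 1 region in each library overlapped a protocadherin transcript start, which was 2.50% of the regions in Pemt-/- (0.443 to 12.9%) and 1.64% in Pemt+/+ (0.290 to 8.72%). Over all regions 0.251 and 0.275% overlapped a transcript start. Among regions chosen by symbol, those of the keratin genes gave 7.27 and 6.25%, and those of the non-clustered protocadherins gave 0% in both libraries.

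Pcdha8 carried the region over a start in both libraries. The Pemt-/- region, chr18:37151687-37152400, held 29 tags, and the Pemt+/+ region, chr18:37151794-37152462, held 45 tags. The Pcdha8 start derived from the lists lies at 37152120. Positions are those of the build mm9.

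Transcript starts could be derived for 41 of the 58 genes (9 α, 16 β and 16 γ) from the distances that the lists give between a start and the regions upstream of it. A region lay within the 3 kb after the start in 20 of these 41 genes in Pemt-/- (48.8%, 34.3 to 63.5%) and in 28 in Pemt+/+ (68.3%, 53.0 to 80.4%). In the 500 bp before the start, where the promoter lies, 2 of 41 had a region in each library (4.88%, 1.35 to 16.1%). These were the region over the Pcdha8 start and a region just upstream of Pcdhb8 that held 12 tags in Pemt-/- and 14 in Pemt+/+. In the 3 kb before the start 7 of 41 had a region in each library (17.1%).

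The placement after the start was present in all 3 clusters. In the α cluster 7 of 9 starts were followed by a region within 3 kb in both libraries, in the β cluster 5 of 16 in Pemt-/- and 10 of 16 in Pemt+/+, and in the γ cluster 8 and 11 of 16. In the α and γ clusters this stretch begins with the variable exon, and in the β cluster it is the body of the single-exon gene. The summit of a region lay a median of 1372 bp after the start of its own gene in Pemt-/- (27 regions) and 1595 bp after it in Pemt+/+ (42 regions). By cluster the medians in Pemt-/- and Pemt+/+ were 1232 and 1348 bp for α, 1790 and 1680 bp for β, and 1208 and 1742 bp for γ regions.

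For a comparison on the same kind of evidence, starts were taken that at least 2 different upstream regions placed at the same position. There were 26 such protocadherin starts and 5596 starts of other transcripts, all of them with regions within 10 kb upstream by construction. A region lay in the 3 kb after 46.2% of the protocadherin starts in Pemt-/- (28.8 to 64.5%) and after 69.2% in Pemt+/+ (50.01 to 83.5%), and after 14.3 and 19.9% of the other starts. From 0.5 to 2 kb after the start the shares were 38.5 and 61.5% for protocadherins and 8.33 and 11.9% for other transcripts. This window was set after the regions had been examined, at the place where protocadherin regions were most frequent. Its contrast with other starts is therefore partly a product of that choice. In the 500 bp before the start the shares were 7.69% in both libraries against 4.09 and 5.22%, and in the 3 kb before it 19.2 and 23.1% against 28.5 and 34.0%. Neighbouring protocadherin starts are not independent, since they are copies in 1 locus and a region can follow more than 1 start, so the difference was not tested.

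**Figure D2:**
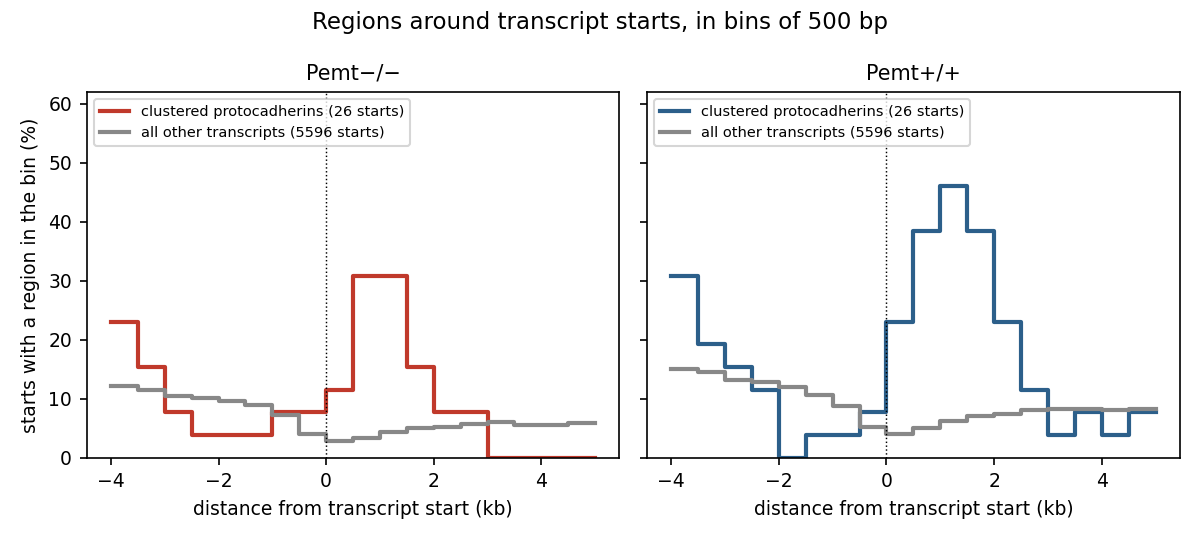
Percent of transcript starts that have a methylated region in each bin of 500 bp (y axis) by distance from the start in kb (x axis), in Pemt-/- (left) and Pemt+/+ (right), for 26 starts of clustered protocadherins (coloured) and 5596 starts of other transcripts (grey). The coloured lines rise after the start, between 0.5 and 2 kb, where the grey lines are low, stand at 7.69% in the last bin before it, and are also high, at 23.1 and 30.8%, in the first bin, 4 kb before it.

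In the α cluster, regions were counted for each gene in its own part, from its transcript start to the start of the next gene. Of the variable α genes, with Pcdha2 counted as part of Pcdha1, 8 had a region in Pemt-/- and 10 in Pemt+/+, and the 8 were among the 10. Pcdha7 had the most regions, with 4 regions and 99 tags in Pemt-/- and 5 regions and 203 tags in Pemt+/+. Its part of the array was also long, 18.5 kb, so that per kb of this part it held 5.34 and 10.9 tags. Pcdha11 had 1 region with 36 tags in Pemt-/- and 3 regions with 71 tags in Pemt+/+. Pcdha8 had 1 region with 29 tags and 2 regions with 78 tags, which was 5.36 and 14.4 tags per kb of its part.

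In Pcdha6, Pcdha12 and the part counted for Pcdha1 the summed tags were higher in Pemt-/-. Pcdha6 had 2 regions with 49 tags in Pemt-/- and 1 region with 38 tags in Pemt+/+, which both Pemt-/- regions overlapped, and per kb of its part it held 7.94 and 6.16 tags. Pcdha12 had 2 regions with 29 tags and 1 region with 19 tags. The part counted for Pcdha1, the most 5′ gene of the array, had 2 regions in each library, with 27 tags in Pemt-/- and 25 in Pemt+/+. This part also includes Pcdha2, which lies between Pcdha1 and Pcdha3. By RefSeq length Pcdha2 begins before both Pemt-/- regions and the Pemt+/+ region of 11 tags, and after the Pemt+/+ region of 14 tags. Pcdha4 and Pcdha5 each had 1 region in Pemt+/+ only, with 16 and 15 tags. No region lay in the own part of Pcdha3 or of the C-type gene Pcdhac1, while the C-type gene Pcdhac2 had 1 region with 10 tags in Pemt-/- and 2 regions with 22 tags in Pemt+/+.

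Of the 22 β genes, 8 had a region in Pemt-/- and 14 in Pemt+/+, and 5 had one in both. Pcdhb7 had 2 regions in each library, with 26 tags in Pemt-/- and 22 in Pemt+/+. Pcdhb19 held the region with the most tags of any in the Pemt-/- clusters, chr18:37657237-37658645, with 42 tags, and it overlapped 2 Pemt+/+ regions with 46 and 12 tags. Pcdhb18 had 1 region in each library, with 11 and 40 tags. Pcdhb10 had 11 and 18 tags, and Pcdhb15 had 11 and 10 tags in regions that did not overlap.

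Several β genes had a region in their own part in 1 library only. At the 5′ end of the array Pcdhb1, Pcdhb2, Pcdhb3 and Pcdhb4 had no region in Pemt-/-, and in Pemt+/+ they had 14, 12, 9 and 24 tags, those of Pcdhb4 in 2 regions. Further along the array Pcdhb8, Pcdhb9, Pcdhb11, Pcdhb12 and Pcdhb20 also had a region in Pemt+/+ only, with 11, 12, 20, 17 and 10 tags. Pcdhb14 and Pcdhb21 had a region in Pemt-/- only, with 10 and 12 tags. Pcdhb5 was counted in Pemt-/- only, with 27 tags over its 3′ end, since the overlapping Pemt+/+ region of 22 tags began just past the end of the gene. No region lay in the own part of Pcdhb6, Pcdhb13, Pcdhb16, Pcdhb17 or Pcdhb22. Most of these regions held few tags, near the lowest of 9 tags listed for a protocadherin region in Pemt+/+ and 10 in Pemt-/-, and a region below the caller's threshold is not listed, so an unlisted gene is not shown to be unmethylated.

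Of the 19 γ genes of the A and B types, 10 had a region in Pemt-/- and 12 in Pemt+/+, and 9 had one in both. Pcdhgb5 had a region of 39 tags in each library, which was 6.75 tags per kb of its part in both. Pcdhga5 had 1 region with 27 tags in Pemt-/- and 2 regions with 65 tags in Pemt+/+, and Pcdhga3 had 2 regions with 36 tags and 1 region with 20 tags. Pcdhgb2 had no region in Pemt-/- and 2 regions with 64 tags in Pemt+/+, or 13.8 tags per kb of its part. Pcdhga12 likewise had none and 2 regions with 32 tags. Genes without a region in either library were Pcdhga1, Pcdhga8, Pcdhga9, Pcdhgb6, Pcdhga10 and Pcdhga11, and the C-type genes Pcdhgc3 and Pcdhgc4. At the end of the array a region over the common 3′ end of all 22 γ transcripts, counted here with Pcdhgc5, held 27 tags in Pemt-/- (chr18:38001156-38001598) and 25 in Pemt+/+ (chr18:38001165-38001878).

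**Figure D3:**
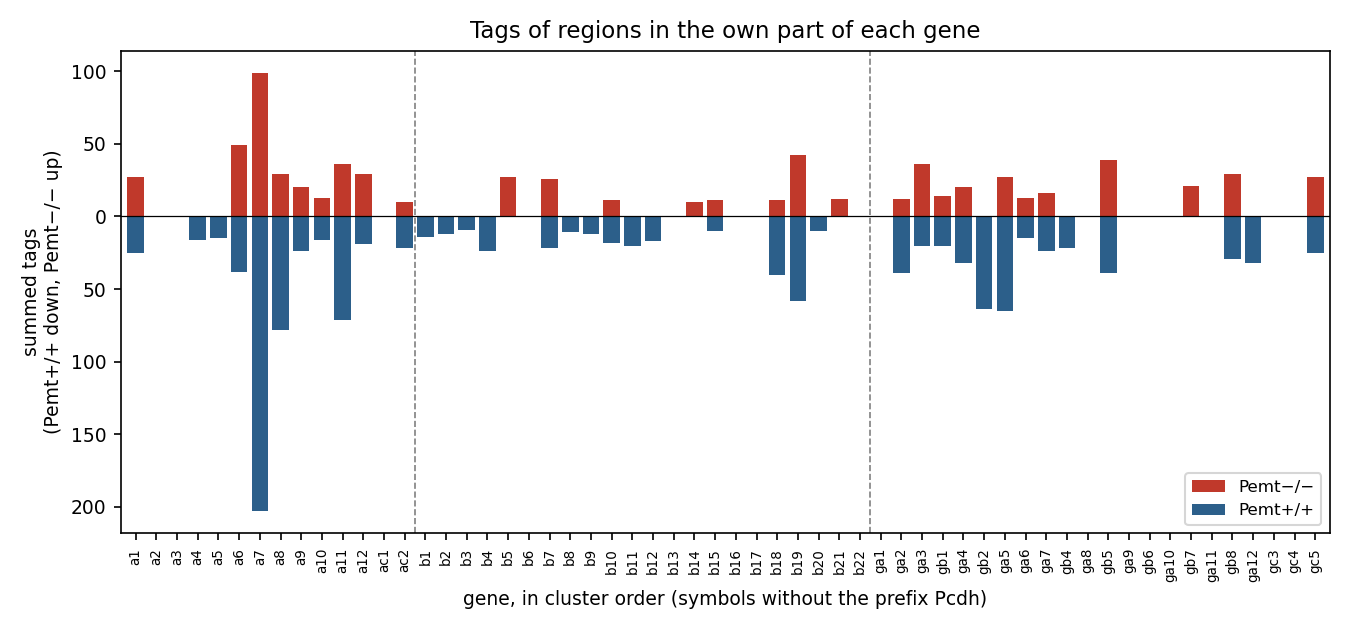
Summed tags of the methylated regions in the own part of each of the 58 protocadherin genes (y axis, Pemt-/- upwards in red and Pemt+/+ downwards in blue), in cluster order (x axis), with dashed lines between the α, β and γ clusters. The bars are not divided by the length of the part. Pcdha7 has the tallest ones, with 99 and 203 tags, and the bars of Pcdhgc5 are the region at the common γ 3′ end. Pcdha2, whose part was counted with Pcdha1, has no bar.

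A pair of places with high tag numbers lay outside the genes. Upstream of Pcdhb2, chr18:37444902-37445633 held 39 tags in Pemt-/- and its counterpart chr18:37444906-37445518 held 49 tags in Pemt+/+. Upstream of Pcdhga1, chr18:37812223-37812792 held 27 tags in Pemt-/- and its counterpart chr18:37812200-37812763 held 46 tags in Pemt+/+. This region was also paired with Taf7, which encodes a subunit of the general transcription factor TFIID. Both places carried a region in each library, with counts among the highest of their clusters.

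The libraries shared 32 protocadherin regions of each. These were 80.0% of the Pemt-/- regions (65.2 to 89.5%) and 52.5% of the Pemt+/+ regions (40.2 to 64.5%), and over all regions the shares were 83.3 and 61.6%. In Pemt-/-, 8 of the 40 regions overlapped none of the other library, against a background of 16.7% over all regions. In Pemt+/+, 29 of the 61 overlapped none, against a background of 38.4%. Of the 29, 9 were in the α, 14 in the β and 6 in the γ cluster, and of the 8, 3, 3 and 2. With lists of equal size the shares of shared regions were 72.5% in Pemt-/- and 70.0% in Pemt+/+.

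**Figure D4:**
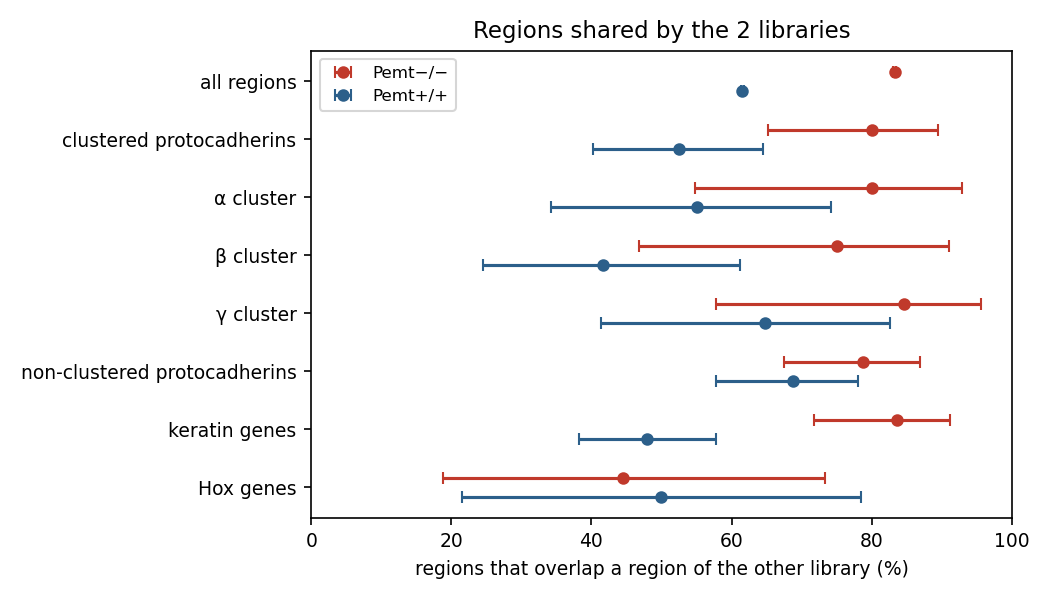
Percent of regions that overlap a region of the other library by at least 1 bp (x axis), with 95% Wilson intervals, in Pemt-/- (red) and Pemt+/+ (blue), for all regions, the clustered protocadherins, each cluster, and 3 other gene groups. The intervals of the clustered protocadherins as a whole include the values of all regions, 83.3 and 61.6%. The Pemt+/+ interval of the β cluster ends just below, at 61.2%, and that of the keratin genes ends lower, at 57.8%. In Pemt-/- the interval of the Hox genes ends below the value of all regions, at 73.3%.

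Unshared regions had lower tag numbers at the median than shared ones. Their median was 13.5 tags in Pemt-/- (range 10 to 21) and 14 in Pemt+/+ (range 9 to 48), and shared regions had medians of 20 and 30.5 tags. Some unshared regions lay close to a region of the other library: 3 of the 8 in Pemt-/- and 4 of the 29 in Pemt+/+ were within 1 kb of one. The median distance was 4.35 and 6.48 kb.

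Among regions listed in Pemt+/+ only, 7 held at least 20 tags. The strongest was in Pcdhgb2, chr18:37849954-37851460, with 48 tags, and the nearest Pemt-/- region lay 3231 bp away. Next was chr18:37153258-37154132 in Pcdha8, with 33 tags, 857 bp from the Pemt-/- region over the start of this gene. The region chr18:37135270-37135694 in Pcdha7 held 23 tags and lay 7 bp from a Pemt-/- region of 25 tags, which was paired with another Pemt+/+ region of 37 tags. The others were in Pcdhgb4 (22 tags), Pcdhga12 (22 tags), Pcdhb11 (20 tags) and Pcdhga5 (20 tags), and each lay more than 2 kb from the nearest Pemt-/- region. Among regions listed in Pemt-/- only, 1 held at least 20 tags, chr18:37913480-37914017 in Pcdhgb7, with 21 tags and with no Pemt+/+ region for 9788 bp.

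To compare tag numbers at the same places, the regions that overlapped exactly 1 region of the other library, and were its only overlap, were paired. This gave 29 pairs in the clusters (10 α, 8 β and 11 γ) of 79393 in all. The pairs held 605 tags in Pemt-/- and 866 in Pemt+/+, so that 41.1% of the tags came from Pemt-/- (38.6 to 43.7%), and over all pairs 39.9% did. The tags of Pemt-/- divided by those of Pemt+/+ gave a median ratio of 0.721, with quartiles of 0.625 and 0.923 and a range of 0.259 to 1.33, and over all pairs it was 0.682. Divided by the median of all pairs, the protocadherin median was 1.06, and by cluster 1.03 (α), 1.21 (β) and 1.03 (γ). Raw tags were higher in Pemt-/- in 4 pairs and equal in 3.

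The ratio was past 1.5-fold after this scaling in 8 of the 29 pairs, in equal numbers on both sides. In 4 pairs (13.8%) Pemt-/- was higher, against a background of 10.4% over all pairs. They were Pcdhb7 with 16 tags in Pemt-/- and 12 in Pemt+/+ (scaled ratio 1.96), the 3′ end of Pcdhb5 with 27 and 22 (1.8), the common 3′ end of the γ cluster with 27 and 25 (1.58), and Pcdhga3 with 21 and 20 (1.54). In the other 4 Pemt+/+ was higher, against a background of 10.9%. They were Pcdha7 with 14 and 54 tags (0.380), Pcdhb18 with 11 and 40 (0.403), Pcdhga2 with 12 and 39 (0.451) and a region downstream of Pcdhb8 with 14 and 33 (0.622).

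The lengths of the paired regions also differed. In each of the 4 pairs with Pemt+/+ higher the Pemt-/- region was the shorter one, with 412 against 952 bp in Pcdha7, 298 against 611 bp in Pcdhb18, 390 against 976 bp in Pcdhga2 and 305 against 527 bp downstream of Pcdhb8. Per kb of region their scaled ratios were 0.838, 0.789, 1.08 and 1.03, all within 1.5-fold. Per kb, the scaled ratio of Pcdhb7 was 1.13 and that of Pcdhb5 was 0.770, while the common γ 3′ end, at 2.43, and Pcdhga3, at 1.98, stayed past the limit. Of the 4 pairs with Pemt-/- higher, the Pemt-/- region was the longer one in Pcdhb7 (774 against 471 bp) and Pcdhb5 (704 against 316 bp). It was the shorter one at the common γ 3′ end (443 against 714 bp) and in Pcdhga3 (344 against 464 bp). The part of length in the tag ratios was not tested.

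**Figure D5:**
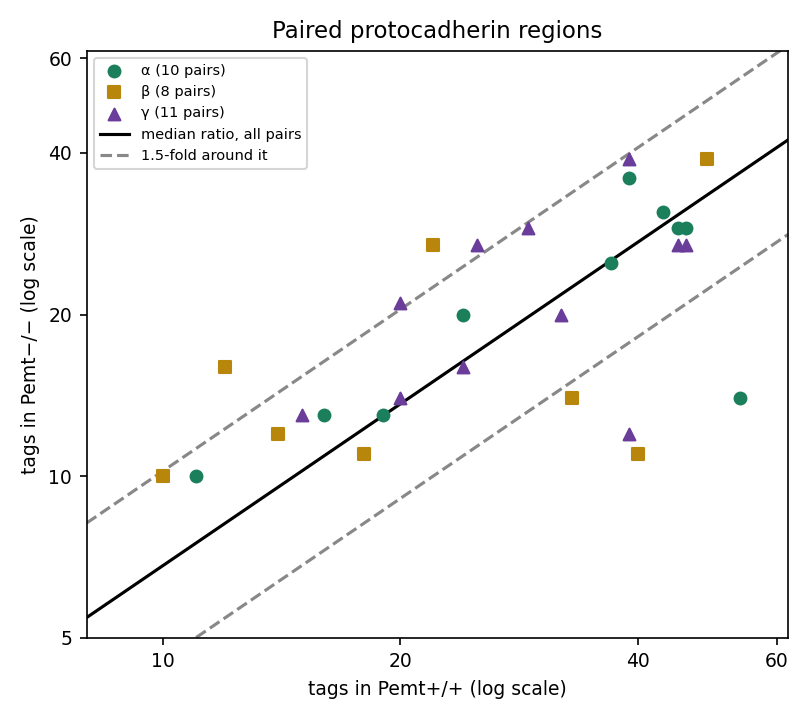
Tags in Pemt-/- (y axis) against tags in Pemt+/+ (x axis), both on log scales, for the 29 pairs of overlapping protocadherin regions, coloured by cluster. The solid line is the median ratio of all 79393 pairs, 0.682, and the dashed lines lie 1.5-fold around it, with 4 pairs above and 4 below them.

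Of the 3 pairs with the most tags in each cluster, those of the α and γ clusters lay within 1.5-fold of the general ratio, and 2 of the 3 in the β cluster did not. In the α cluster Pcdha11 held 36 tags in Pemt-/- and 39 in Pemt+/+ (scaled ratio 1.35). The most 3′ region in the own part of Pcdha7 held 29 and 46 (0.925), and the region over the Pcdha8 start held 29 and 45 (0.945). In the β cluster the region upstream of Pcdhb2 had a scaled ratio of 1.17, while Pcdhb18 (0.403) and Pcdhb5 (1.8) were past the limit in opposite directions. In the γ cluster the ratio was 1.47 for Pcdhgb5, 0.861 for the region upstream of Pcdhga1, and 0.880 for Pcdhga5, with 27 and 45 tags.

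The authors also deposited a shorter list per library, whose meaning the sample records do not state. It held 2 protocadherin regions for each library. For Pemt-/- these were in Pcdhb21 (chr18:37674952-37675430, 12 tags) and in Pcdhgb8 (chr18:37922182-37922814, 19 tags), both with a false discovery rate (FDR) of 100%. The latter is not in the longer list and lies 991 bp from a Pemt+/+ region of 29 tags. For Pemt+/+ they were the regions in Pcdhb11 (20 tags, FDR 25.3%) and Pcdhb18 (40 tags, FDR 30.3%). The median FDR of the whole shorter list was the same as that of its protocadherin regions in Pemt-/-, and it was 32.6% in Pemt+/+. A region of the longer list recurred in the shorter one for 1 of 40 in Pemt-/-, against a background of 2.13%, and for 2 of 61 in Pemt+/+, against 4.59%.

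Other tandem gene arrays and other cadherins were counted in the same way. The keratin genes, structural proteins of epithelia arranged in 2 arrays, had 55 Pemt-/- and 96 Pemt+/+ regions, with 83.6 and 47.9% of them shared. The Hox genes, regulators of body pattern, had 9 and 8. The non-clustered protocadherins, which are single genes across the genome, had 66 and 77 regions, and the median scaled ratio of their 48 pairs was 0.928, against 1.06 in the clusters. Among 12 of these genes, 10 had a region in Pemt-/- and 11 in Pemt+/+. Reads of the variable exons can match more than 1 of these similar genes, and how such reads were placed is not given, so the division of tags among neighbouring genes of a cluster is uncertain.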

How the data were processed

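Methylated DNA from Pemt-/- and Pemt+/+ mouse liver was analysed, with 1 library per genotype and groups taken from the labels. The sample records name bisulphite conversion before the capture. The submitters' processing notes name CASAVA 1.8.2, Bowtie and the build mm9. The deposited region names are those of the caller MACS. Its version and settings, the control, and the handling of duplicate and multiply matching reads are not given in the sources used here, and these can change tag numbers. Tags, as deposited, are read counts per region without normalization. The deposited score is 10 times the −log10 of the p-value and was at least 50. Fold enrichment is the authors' ratio of reads over background. The deposited FDR is a percent and was 0% throughout the longer lists. The authors paired regions with RefSeq transcripts up to 10 kb away.

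Regions were compared with bedtools 2.31.1 (minimum overlap 1 bp), and calculations used Python 3.11.15, pandas 2.3.3, numpy 2.4.6, scipy 1.17.1 and matplotlib 3.10.9. Paired tag ratios were divided by the median of all pairs, since the lists give no library totals. The Pemt-/- regions held 1582080 tags and the Pemt+/+ regions 2847831. Starts were derived from the listed distances, and 57 symbols matched a gene ID of the RefSeq table (GRCm38.p6), which served for names, order and lengths only. Named by rule were, per cluster, the 3 pairs with the most tags, the 2 highest and 2 lowest scaled ratios among pairs with at least 20 tags, unshared regions with at least 20 tags, regions of the shorter lists, and the genes with the most regions. Other genes are named in counts. Members and lists were chosen with earlier results of these data known, and the comparison of windows around starts was added after the regions had been examined. The overlap and scaling steps were tested on simulated data. Alternatives were an upper 50% by score, an overlap of 50% of both regions, lists of equal size, regions in transcripts only, scaling by chromosome 18, a fold limit of 2 and a minimum of 20 tags. The mRNA arrays were not analysed here, and protocadherin sequences are not printed here.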

Additional observations from a re-analysis of the deposited data

How the results depend on the processing

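No paired analysis was possible because there was 1 library per genotype, and no replicate could be left out. Of 46 recomputed values 30 stayed within their range and 16 moved. No scaled median crossed 1, but the interval of each of these medians included 1. With the upper 50% of each list by score, 18 regions remained in Pemt-/- and 25 in Pemt+/+ (α 5 and 6, β 4 and 8, γ 9 and 11). The scaled median ratio was then 1.36 (0.9 to 1.575), and 44.9% of paired tags came from Pemt-/-. The number of pairs past the fold limit with Pemt+/+ higher was 1. With an overlap of 50% of both regions that number was also 1, and 65.0% of the Pemt-/- regions were shared. With lists of equal size Pemt+/+ had 40 regions, of which 70.0% were shared. With a fold limit of 2, 0 pairs had Pemt-/- higher and 3 had Pemt+/+ higher. With tags per kb of region, an alternative chosen after seeing the data, 2 pairs had Pemt+/+ higher and 5 Pemt-/- higher. For the pair counts under these alternatives no share over all pairs is given, so they cannot be read as particular to the protocadherins. The first 3 settings leave fewer regions or pairs, the fourth changes the limit, and tags per kb takes in the unequal lengths. What moved each value was not tested. The protocadherin regions listed held at least 10 (Pemt-/-) and 9 (Pemt+/+) tags, and the library totals are unknown. Whether depth accounts for a region missing from a list was not tested.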

Other observations

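Genes of factors known to act on the protocadherin clusters were also read from the lists. Of 15 such genes, 10 had a region in each library, and none was listed at Smc1a, Rad21, Setdb1, Wiz or Rest. In the 47 pairs of regions at these genes the scaled median ratio was 1.11. Pemt-/- was past 1.5-fold higher in 9 pairs, against a background of 10.4% over all pairs, and Pemt+/+ in 2, against 10.9%. The tags that follow are not scaled. Ctcf, the gene of the insulator protein that binds protocadherin promoters, had 4 regions in each library, with 53 tags in Pemt-/- and 66 in Pemt+/+. Smchd1, which encodes a chromatin protein that acts on these clusters, had 12 regions with 197 tags and 13 regions with 283 tags. Dnmt3b, the de novo DNA methyltransferase, had 4 regions with 49 tags and 5 regions with 78 tags, and Dnmt3a had 8 regions with 122 tags and 7 regions with 158 tags. At Stag1 (67 and 58 tags) and Wapal (36 and 25 tags) the tags were higher in Pemt-/-, and at the other genes with a region they were lower.

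All 8 classical cadherins examined had a region in both libraries. Together they had 1.25 times as many regions in Pemt+/+, against 1.35 times over all regions, and the scaled median ratio of their pairs was 0.953. Of their tags, which are not scaled here, 34.8% came from Pemt-/-, against 35.7% over all regions. Cdh1, the gene of the epithelial adhesion protein E-cadherin, had 3 regions with 47 tags in Pemt-/- and 8 regions with 193 tags in Pemt+/+. Region numbers were closer in Cdh2, with 7 and 7, and in Cdh4, with 44 and 48. Cdh11 was the gene with more regions in Pemt-/-, with 6 regions and 67 tags against 4 regions and 49 tags.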
